A study of Mus musculus with 9 samples.

Results

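The guanylate-binding proteins (GBPs) and the immunity-related GTPases (IRGs) are large interferon-inducible GTPases of the mouse. Ribosome footprints on 10 of their genes, 6 GBPs (Gbp2, Gbp3, Gbp4, Gbp5, Gbp6 and Gbp7) and 4 IRGs (Irgm1, Irgm2, Igtp and Iigp1), were taken by symbol from a count table with 36410 rows, and a row was present for each of the 10. Both protein families bind and hydrolyse GTP, assemble on intracellular membranes and are best known for coating and breaking the vacuoles in which bacteria and parasites live. Their genes are switched on by interferon gamma through gamma-activated sites (GAS), and by type I interferon through interferon-stimulated response elements (ISRE), to which IRF9 directs its complex. Among the IRGs, Irgm1, Irgm2 and Igtp (also called Irgm3) act as regulators that sit on the cell's own organelles, whereas Iigp1 (also called Irga6) is an effector that attacks pathogen vacuoles.

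The footprints came from 3 immortalized mouse striatal cell lines that carry knock-in Htt exon 1 alleles: STHdhQ7/Q7 (control) with 7 glutamines on both alleles, STHdhQ7/Q111 (HD-het) with 7 and 111, and STHdhQ111/Q111 (HD-homo) with 111 on both. Each line gave 3 libraries from cells treated with cycloheximide for 10 min, and the strain label was C57/BL6 throughout. The comparison asks how footprint abundance on these genes differs with the number of expanded Htt alleles. Each genotype was 1 cell line, so the genotype and everything else that differs between the lines cannot be told apart. The labels do not say whether the 3 libraries of a line came from separate cultures, so each SD, SE and p-value measures only the spread between libraries of 1 line, which may be technical. Footprint counts were not divided by mRNA here, and in bulk libraries fewer expressing cells and less RNA per cell cannot be told apart.

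Library totals lay between 22504543 and 41888701 counts. Levels are given in counts scaled to equal totals (CPM), and a library with no footprint on a gene allowed up to 0.0714 to 0.142 CPM depending on its total (3 counts, counting error only). Within a line the libraries correlated at 0.988 or above across genes. The cells were checked against marker genes of the tissue and of cells that use GBPs and IRGs most. Of 10 microglia and macrophage markers, Cx3cr1 and Tyrobp were at 0 in each of the 9 libraries, and Itgam, Aif1 and Adgre1 never exceeded 1 count. The summed level of that list was 2.56 to 3.63 CPM in control cells, 4.06 to 9.69 CPM in HD-het cells and 3.29 to 3.98 CPM in HD-homo cells. Of 8 striatal neuron markers, the dopamine receptor genes Drd1 and Drd2 were at 0 in every library. The summed list was 8.92 to 18.02 CPM in control, 4.40 to 7.44 in HD-het and 7.09 to 17.9 in HD-homo. Ppp1r1b supplied most of that sum in each line. It was lower in HD-het (5.18 CPM) than in control (12.04, edgeR adjusted p = 0.04) and was not called in HD-homo against either line. Penk, the other member tested, was higher in HD-homo (2.92 CPM) than in control (1.42, edgeR adjusted p = 0.0287), although libraries of these lines overlapped. Penk in HD-homo was also higher than in HD-het (0.824 CPM, edgeR adjusted p = 0.000922). Of 6 neural precursor markers, 2 were higher and 1 lower in HD-het than in control, and 2 were higher (Sox9 and Fabp7) and 4 lower (Nes, Vim, Sox2 and Msi1) in HD-homo. Nes (nestin) went from 400 ± 82.6 CPM in control to 1086 ± 77.8 in HD-het and 7.01 ± 0.611 in HD-homo (SD, n = 3), and the summed list from 9589 to 9859 CPM through 9008 to 9838 to between 6080 and 6586 CPM. The 6 mesenchymal markers summed to 7846 to 12046 CPM in control cells, 36042 to 44645 in HD-het cells and 7370 to 10287 in HD-homo cells, and the 6 endothelial markers, with Cldn5 at 0 throughout, to 78.0 to 114 CPM, 177 to 253 CPM and 5.58 to 10.3 CPM in the same order. Nearly all of the endothelial sum was Flt1, with means of 100, 204 and 6.71 CPM in that order. Kdr, the other endothelial marker tested, was higher in HD-het (1.75 CPM) than in control (0.422). It was not called in HD-homo against control. The mesenchymal sums of control and HD-homo overlapped although members moved in opposite directions. Col1a2 was higher in HD-homo (1027 CPM against 24.0, log2 fold change 5.41, edgeR adjusted p = 2.07e-08). Acta2 was lower there (267 CPM against 4099, log2 fold change -3.94, edgeR adjusted p = 5.33e-08). The other tested members, Col1a1, Pdgfrb and Fn1, were not called between these lines. The summed microglia list of HD-homo overlapped that of control and lay below every HD-het library. Its members went different ways. Csf1r was at 0.339 CPM in control cells and 1.06 CPM in HD-homo cells (edgeR adjusted p = 0.00211). Outside HD-homo it lay close to the filter on low counts, with 10, 14 and 8 counts in control and 6, 16 and 10 in HD-het. Its call therefore describes the level and is not support for a direction. Cd68, the member with the highest level, was higher in HD-het (5.19 CPM) than in control (2.38, edgeR adjusted p = 0.0109) or HD-homo (2.47, edgeR adjusted p = 0.0128). Its HD-het libraries held 3.38, 3.74 and 8.46 CPM, so replicate 3 set much of that mean. P2ry12, which was not tested, totalled 2 counts over the HD-homo libraries, against 28 for control and 20 for HD-het. The part of the marker differences in the results was not tested. Of the 12678 genes tested, 78.4% differed among the 3 lines.

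The genes lie in clusters. On chromosome 3 (GRCm38.p6) Gbp5 (142496934 to 142522344), Gbp7 (142530336 to 142550151), Gbp3 (142560016 to 142573213) and Gbp2 (142620663 to 142638008) follow one another, with the relative Gbp2b between the last pair. Gbp4 (105115767 to 105139586) and Gbp6 (105270702 to 105295871) belong to a second GBP cluster on chromosome 5. Irgm1 (48865245 to 48871420), Igtp (58199556 to 58207592) and Irgm2 (58214977 to 58222783) are on chromosome 11, the last pair as direct neighbours.

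The stretch before the start of transcription is where interferon acts on these genes, and it is printed for 5 members that went different ways in the data: Gbp7 and Gbp2, which had the largest fitted fold changes in HD-homo against control, Igtp, which had a middling one, Gbp5, which was nearly silent, and Irgm1, which was abundant in every line. Each line holds the 250 bases before the annotated start on the strand of the gene, from the RefSeq promoter table of GRCm38.p6, and capitals mark matches to the ISRE core GAAANNGAAA or the GAS core TTCNNNGAA on either strand. The windows are chr3:142530086-142530335 (+), chr3:142620413-142620662 (+), chr11:58199306-58199555 (+), chr3:142496684-142496933 (+) and chr11:48871421-48871670 (-), in the order given.
Gbp7: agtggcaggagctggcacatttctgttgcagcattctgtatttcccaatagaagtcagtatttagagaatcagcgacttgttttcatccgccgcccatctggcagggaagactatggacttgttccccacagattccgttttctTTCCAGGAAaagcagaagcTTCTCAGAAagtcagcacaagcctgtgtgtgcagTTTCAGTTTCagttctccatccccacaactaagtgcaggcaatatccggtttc
Gbp2: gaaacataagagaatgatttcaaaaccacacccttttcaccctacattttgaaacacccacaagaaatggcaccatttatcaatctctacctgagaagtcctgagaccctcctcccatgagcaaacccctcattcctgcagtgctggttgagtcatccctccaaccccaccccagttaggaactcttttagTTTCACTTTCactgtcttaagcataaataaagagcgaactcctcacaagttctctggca
Igtp: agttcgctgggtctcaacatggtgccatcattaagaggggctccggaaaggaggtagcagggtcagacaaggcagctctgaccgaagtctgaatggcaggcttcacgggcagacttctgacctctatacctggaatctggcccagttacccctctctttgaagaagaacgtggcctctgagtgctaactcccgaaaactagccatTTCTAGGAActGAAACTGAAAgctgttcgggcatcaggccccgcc
Gbp5: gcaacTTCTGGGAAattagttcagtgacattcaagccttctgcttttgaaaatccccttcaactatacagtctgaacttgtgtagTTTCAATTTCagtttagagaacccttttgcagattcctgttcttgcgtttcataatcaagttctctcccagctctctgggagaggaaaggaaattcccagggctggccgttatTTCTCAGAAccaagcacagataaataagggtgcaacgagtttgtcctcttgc
Irgm1: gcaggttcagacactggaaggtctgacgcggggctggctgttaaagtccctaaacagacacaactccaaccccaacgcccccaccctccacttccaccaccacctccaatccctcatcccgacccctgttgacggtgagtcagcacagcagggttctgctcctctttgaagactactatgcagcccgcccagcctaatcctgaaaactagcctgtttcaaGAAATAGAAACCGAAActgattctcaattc

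A promoter was in the table for 7 of the 10 members, and those of Gbp4, Gbp6 and Iigp1 were not in it. An ISRE core lay upstream of each of the 7 genes, against 3.44% of all 32851 promoters searched over 250 bases before to 50 after the start, and Gbp3 held it at only 1 of its 2 annotated starts. The match ended 15 to 50 bases before the start in Gbp2, Gbp3, Gbp7, Irgm1 and Igtp, 55 before it in Irgm2 and 156 before it in Gbp5. Gbp3 and Irgm1 each carried 2 ISRE matches that overlapped each other. A GAS core, present in 8.3% of all promoters, was found for Gbp5, Gbp7, Igtp and Irgm2 and not for Gbp2, Gbp3 or Irgm1. In Igtp and Irgm2 the GAS match lay 2 bases upstream of the ISRE match. The near-silent Gbp5 and the abundant Irgm1 held an ISRE match just as the members that rose did. A match describes letters only and shows no binding.

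**Figure D1:**
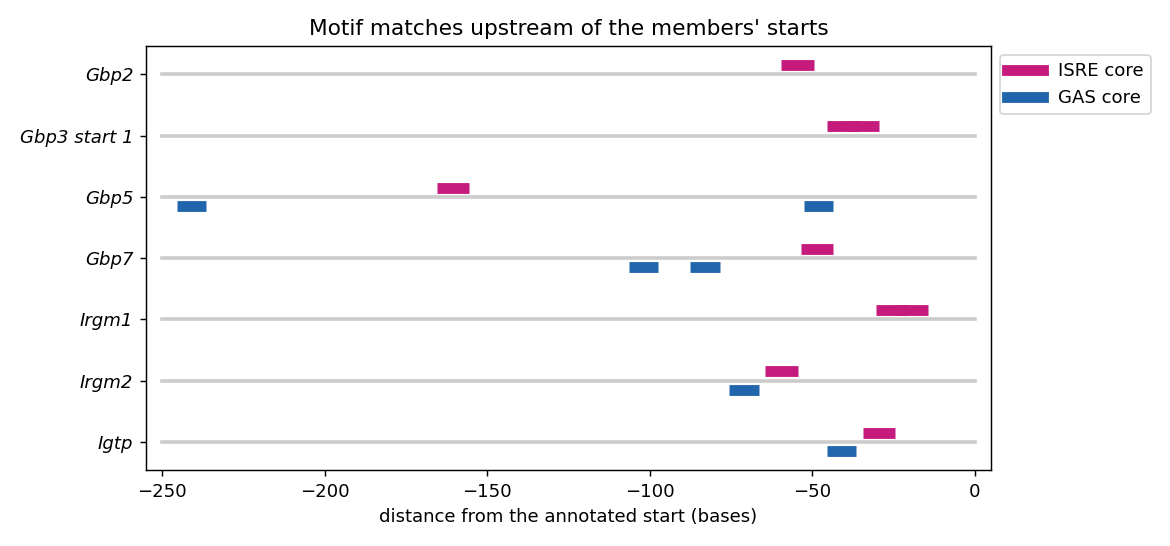
ISRE core (pink, drawn above the line) and GAS core (blue, below the line) matches in the 250 bases before the annotated start of the 7 members with a promoter in the table, against distance from the start in bases (Gbp3 is shown for the start that holds a match). Each of the 7 has a pink match, and Gbp5, Gbp7, Irgm2 and Igtp also have a blue one.

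In control cells the family was almost entirely Irgm1. The 10 genes together held 20.8 ± 2.77 CPM in control cells, 33.3 ± 4.96 CPM in HD-het cells and 37.9 ± 4.90 CPM (SD, n = 3) in HD-homo cells. Irgm1 supplied 93.8 to 96.3% of that sum in the control libraries, 88.6 to 89.6% in HD-het and 42.6 to 45.5% in HD-homo. The share of the 6 GBPs went from 1.93 to 2.77% in control through 5.86 to 7.36% in HD-het to 41.2 to 47.6% in HD-homo, and that of Igtp and Irgm2 together from 1.75 to 3.41% through 3.50 to 4.52% to 9.52 to 12.7%. Without Irgm1 the summed level was 1.00 ± 0.175 CPM in control cells, 3.60 ± 0.380 CPM in HD-het cells and 21.03 ± 2.33 CPM in HD-homo cells. The ranges of the 3 lines did not overlap for any of these shares.

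**Figure D2:**
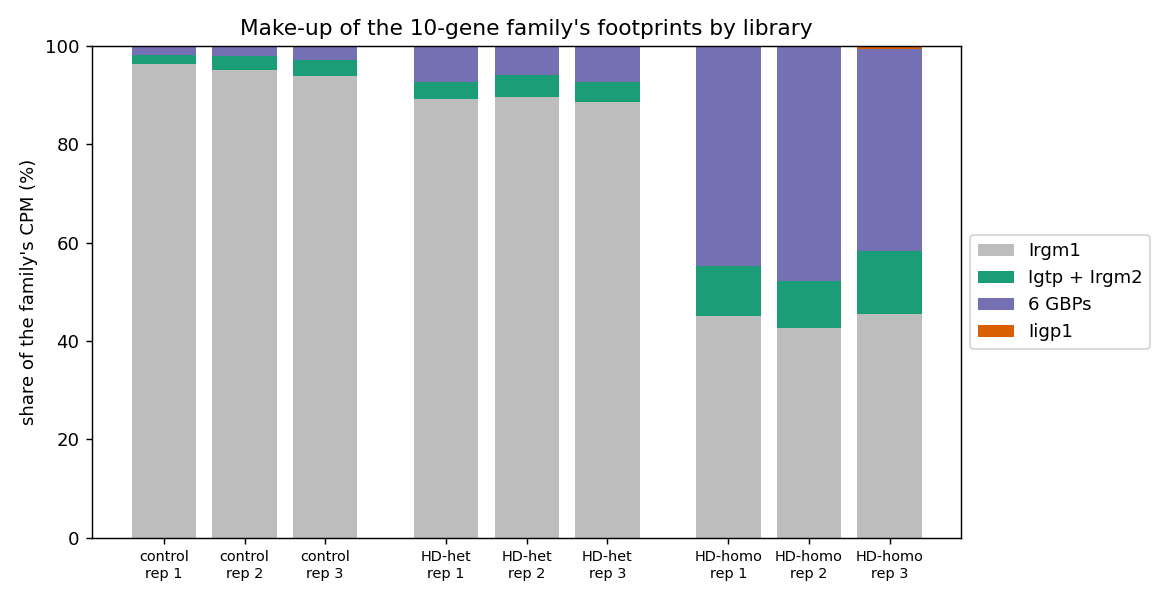
Share of the summed CPM of the 10 genes (y axis, percent) in each of the 9 libraries, split into Irgm1 (grey), Igtp and Irgm2 (green), the 6 GBPs (purple) and Iigp1 (orange). Grey fills 93.8 to 96.3% of the control bars and 42.6 to 45.5% of the HD-homo bars, where purple takes 41.2 to 47.6%.

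Put per kilobase of coding sequence, so that genes can be set side by side, Irgm1 was highest in every line, at 16.1 CPM per kb in control cells, 24.2 in HD-het cells and 13.7 in HD-homo cells. Gbp3 came next in HD-homo with 4.44 ± 0.616 CPM per kb, followed by Gbp2 with 2.97 ± 0.352 (SD, n = 3). Igtp (1.74 ± 0.615), Gbp7 (1.63 ± 0.124) and Irgm2 (1.60 ± 0.382) had HD-homo levels per kb within one another's SD. In control none of these 5 exceeded a mean of 0.286 CPM per kb, the level of Irgm2. In HD-het the order below Irgm1 was Gbp2 (0.821), Igtp (0.651), Irgm2 (0.426), Gbp3 (0.325) and Gbp7 (0.0956 CPM per kb), so Gbp3 moved from near the end of the order to the place behind Irgm1.

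Of the 10 members, 6 (Gbp2, Gbp3, Gbp7, Irgm1, Irgm2 and Igtp) had enough footprints to be tested. Among them Irgm1 alone met the filter in the control libraries, and the other 5 passed through the lines in which they were higher, so their counts describe the tested members and are not support for a direction. In HD-het against control, 5 of the 6 were higher and 0 lower, where 31.0% of all tested genes were higher and 29.1% lower at an edgeR adjusted p under 0.05. In HD-homo against control, 5 were higher and 0 lower, against 23.3% and 22.3% of all genes. In HD-homo against HD-het, 5 were higher and 1 lower, against 34.6% and 32.8%. Libraries of the lines compared did not overlap for 6 of 6 members in HD-het against control (71.2% of all genes), 5 of 6 in HD-homo against control (55.5%) and 6 of 6 in HD-homo against HD-het (69.5%), and all 6 tested members differed among the lines (78.4% of all genes). For Gbp7 in HD-het against control, the closest libraries held equal counts and were set apart by their totals alone. The comparisons share libraries, so they are not separate evidence. The median log2 fold change of the 6 was 1.52, 4.10 and 1.86 in the 3 comparisons in that order, and 0.02 over all genes in each.

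**Figure D3:**
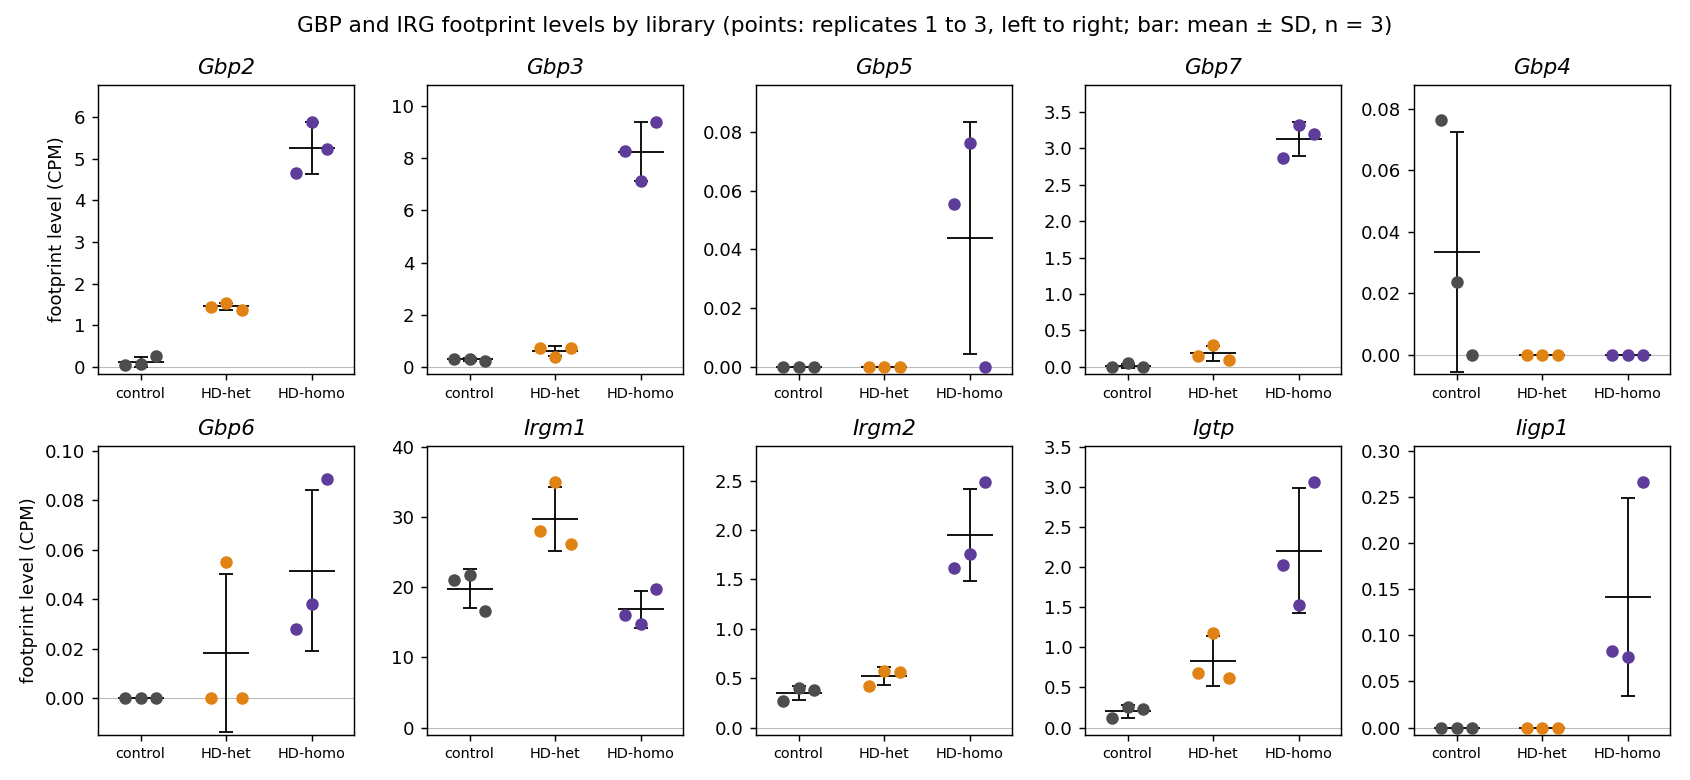
Footprint level (CPM, linear axes that differ between panels) of each of the 10 members in the 3 libraries of control, HD-het and HD-homo cells, with the mean ± SD (n = 3) as bars. Gbp2, Gbp3, Gbp7, Irgm2 and Igtp are highest in all 3 HD-homo libraries, Irgm1 is highest in HD-het, and Gbp4, Gbp5, Gbp6 and Iigp1 stay at or below 0.266 CPM.

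Gbp2, a lipid-anchored GBP that is among the first to reach pathogen vacuoles, rose from control to HD-het and again to HD-homo. It was at 0.0382, 0.0714 and 0.263 CPM in control replicates 1 to 3 (1, 3 and 7 counts), at 1.44, 1.54 and 1.37 CPM in HD-het and at 4.64, 5.89 and 5.23 CPM in HD-homo. No library of one line reached into the range of another. On the log2 scale the change was 3.59 (SE 0.39, edgeR adjusted p = 1.66e-05) in HD-het and 5.44 (SE 0.34, edgeR adjusted p = 2.5e-07) in HD-homo against control, and 1.84 (SE 0.24, edgeR adjusted p = 3.72e-05) between the HD lines. More than any other control library, replicate 3 set the size: without it the values against control were 4.54 and 6.39.

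Gbp3, a GBP of the same cluster, showed most of its rise in the second step. Its control libraries held 0.305, 0.309 and 0.226 CPM, the HD-het libraries 0.721, 0.385 and 0.709 CPM and the HD-homo libraries 8.26, 7.11 and 9.40 CPM. Every HD-het library was above every control library, but by little, and all HD-homo libraries were far above both. Against control the log2 fold change came to 1.03 in HD-het (SE 0.33, edgeR adjusted p = 0.0198) and 4.84 in HD-homo (SE 0.25, edgeR adjusted p = 4.84e-08). Between HD-homo and HD-het it was 3.81 (SE 0.23, edgeR adjusted p = 1.08e-07). The HD-het call did not survive the removal of control replicate 3, HD-het replicate 1 or HD-het replicate 3 (edgeR adjusted p = 0.0606, 0.08 and 0.0633).

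Gbp7, which lies next to Gbp3, was close to absent from control cells. Control replicate 2 held 2 counts and the other control libraries 0, HD-het held 4, 11 and 2 counts, and HD-homo held 103, 87 and 72 counts. These are 0.152, 0.302 and 0.0946 CPM in HD-het and 2.86, 3.33 and 3.19 CPM in HD-homo, which lay far above the other lines. HD-het replicate 3 and control replicate 2 each held 2 counts, so only their totals set them apart (0.0946 against 0.0476 CPM). Both lay below what 0 counts allow in those libraries (0.142 and 0.0714 CPM). The ratio of HD-het to control footprints per total was 9.61 (95% counting interval 2.281 to 85.76), and that of HD-homo to control was 147 (40.21 to 1218). HD-homo exceeded HD-het 15.3-fold by the same measure (9.353 to 26.61). The fitted log2 fold changes were 3.01 (SE 0.78, edgeR adjusted p = 0.00608), 6.95 (SE 0.49, edgeR adjusted p = 5.66e-07) and 3.94 (SE 0.35, edgeR adjusted p = 2e-06) in the same order. Without control replicate 2 the control group was at 0 and the fitted values against it became 5.49 and 9.43, which then depend on the prior count, and without HD-het replicate 2 the values that use HD-het became 2.35 and 4.58.

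The other GBPs had almost no footprints in any line. Gbp5, which promotes inflammasome assembly, had 0 counts in control and HD-het and 2, 2 and 0 counts in HD-homo. Gbp4 had 2, 1 and 0 counts in control and 0 in the HD libraries, and Gbp6 had 0 counts in control cells, 0, 2 and 0 in HD-het cells and 1, 1 and 2 in HD-homo cells. None of these 3 was tested, and each group was at or below 3 counts per library, so no fold is given. Gbp4 and Gbp6 share much of their sequence with neighbours on chromosome 5: 44.9% and 97.3% of their 28-base coding windows also occur in transcripts of other genes, against 7.55 to 11.8% for Gbp2, Gbp3, Gbp5 and Gbp7. How reads that fit several genes were counted is not given in the sources used here. The other chromosome 5 members of the family, Gbp8, Gbp9, Gbp10 and Gbp11, never exceeded 4 counts in a library either, so the cluster on chromosome 3 held nearly all GBP footprints and, within it, Gbp5 at its edge held almost none.

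Irgm1, the IRG that protects the cell's own membranes and takes part in autophagy and mitochondrial quality control, had by far the most footprints and a different order of lines. It stood at 20.96, 21.8 and 16.5 CPM in control cells, 28.05, 34.9 and 26.2 CPM in HD-het cells and 16.02, 14.7 and 19.8 CPM in HD-homo cells. HD-het was above both other lines in every library, whereas the control and HD-homo ranges overlapped. HD-het exceeded control by a log2 fold change of 0.59 (SE 0.15, edgeR adjusted p = 0.00546) and HD-homo differed from HD-het by -0.83 (SE 0.15, edgeR adjusted p = 0.00052). HD-homo against control gave -0.24 (SE 0.15, edgeR adjusted p = 0.23), which was not called. With 385 to 1269 counts in a library, Irgm1 was the most precisely counted member.

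Irgm2, a regulator at the Golgi that restrains caspase-11 signalling, rose in HD-homo. Its control libraries held 0.267, 0.404 and 0.376 CPM, the HD-het libraries 0.417, 0.577 and 0.567 CPM and the HD-homo libraries 1.61, 1.76 and 2.48 CPM. The HD-het libraries all lay just above control, yet the log2 fold change of 0.55 did not pass (SE 0.32, edgeR adjusted p = 0.159). In HD-homo it was 2.43 against control (SE 0.27, edgeR adjusted p = 2.55e-05) and 1.88 against HD-het (SE 0.26, edgeR adjusted p = 6.81e-05).

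Igtp, a regulator found at the endoplasmic reticulum and on lipid droplets, rose at both steps. It was at 0.115, 0.262 and 0.226 CPM in control cells, 0.683, 1.18 and 0.615 CPM in HD-het cells and 2.03, 1.53 and 3.06 CPM in HD-homo cells. The 3 lines did not overlap, although the HD-homo libraries spread over a 2-fold range. Against control the log2 fold change reached 2.01 in HD-het (SE 0.44, edgeR adjusted p = 0.00226) and 3.36 in HD-homo (SE 0.40, edgeR adjusted p = 4.01e-05), and it was 1.35 between HD-homo and HD-het (SE 0.33, edgeR adjusted p = 0.00327). Igtp and Irgm2 share 16.3% and 16.9% of their 28-base coding windows with other genes, mainly with each other, and Irgm1 1.92%.

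Iigp1, the effector IRG, had footprints in HD-homo only, 3, 2 and 6 counts against 0 in the 6 control and HD-het libraries. These are 0.0834, 0.0765 and 0.266 CPM in HD-homo replicates 1 to 3, so that replicate 3 alone lay above the 0.0996 and 0.113 CPM that 0 counts allow on average in a control or HD-het library, and no fold is given. Iigp1 did not pass the filter. When all rows with a count were fitted the edgeR adjusted p was 0.0196 against control and 0.0149 against HD-het, and without HD-homo replicate 3 it was 0.0696 and 0.0551.

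Set side by side, the 5 members that rose in HD-homo differed in the size of the second step. Between HD-homo and HD-het the log2 fold change was 3.81 for Gbp3 and 3.94 for Gbp7, neighbours on chromosome 3, but 1.84 for Gbp2, 1.88 for Irgm2 and 1.35 for Igtp. In the first step, HD-het against control, Gbp2 (3.59) and Gbp7 (3.01) stood above Igtp (2.01), Gbp3 (1.03) and Irgm2 (0.55, not called). Without control replicate 2 the order of the first pair turned, with 3.23 for Gbp2 and 5.49 for Gbp7. Differences between members were not tested.

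**Figure D4:**
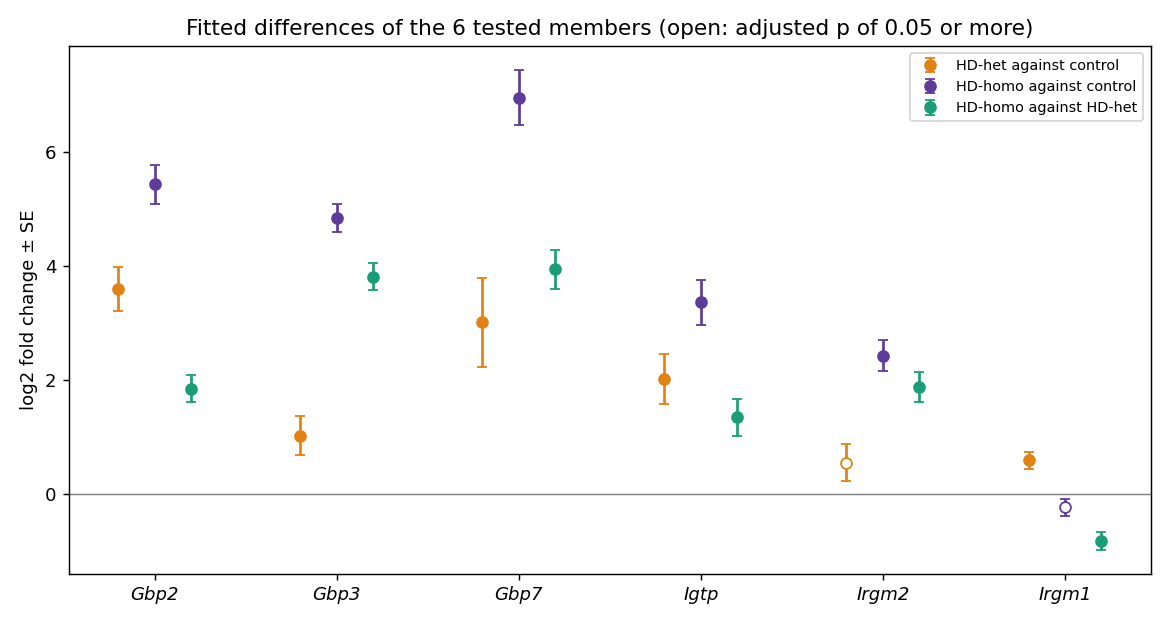
Fitted log2 fold change ± SE (y axis) of the 6 tested members in HD-het against control (orange), HD-homo against control (purple) and HD-homo against HD-het (green); open symbols did not pass the adjusted threshold of 0.05. The green values of Gbp3 and Gbp7 (3.81 and 3.94) stand above those of the other members, and Irgm1 is the 1 member with a called value below 0 (-0.83).

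The HD-homo libraries did not rank the members in one order. Gbp2 and Gbp7 were highest in replicate 2, and their coefficients of variation in HD-homo were 11.8% and 7.59%. Gbp3, Irgm1, Irgm2, Igtp and Iigp1 were highest in replicate 3. Igtp had the widest spread of the tested members, 35.4%, and its replicate 3 exceeded its replicate 2 by 2.00-fold (95% counting interval 1.336 to 3.032). The interferon-induced genes Usp18 and Mx2 followed Igtp with a wider spread: the highest library, replicate 3, exceeded the lowest, replicate 2, by 3.50-fold for Usp18 (2.983 to 4.128) and by 25.5-fold for Mx2 (9.621 to 95.73). For Gbp7 the highest library exceeded the lowest by 1.16-fold (0.8626 to 1.56), an interval that includes equal levels. Irf1, an activator of these genes, was highest in replicate 2, as Gbp2 and Gbp7 were. Irf9 was nearly equal in replicates 1 and 3 (21.8 and 22.2 CPM) and lower in replicate 2 (14.9 CPM). With 3 libraries these orders were not tested.

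**Figure D5:**
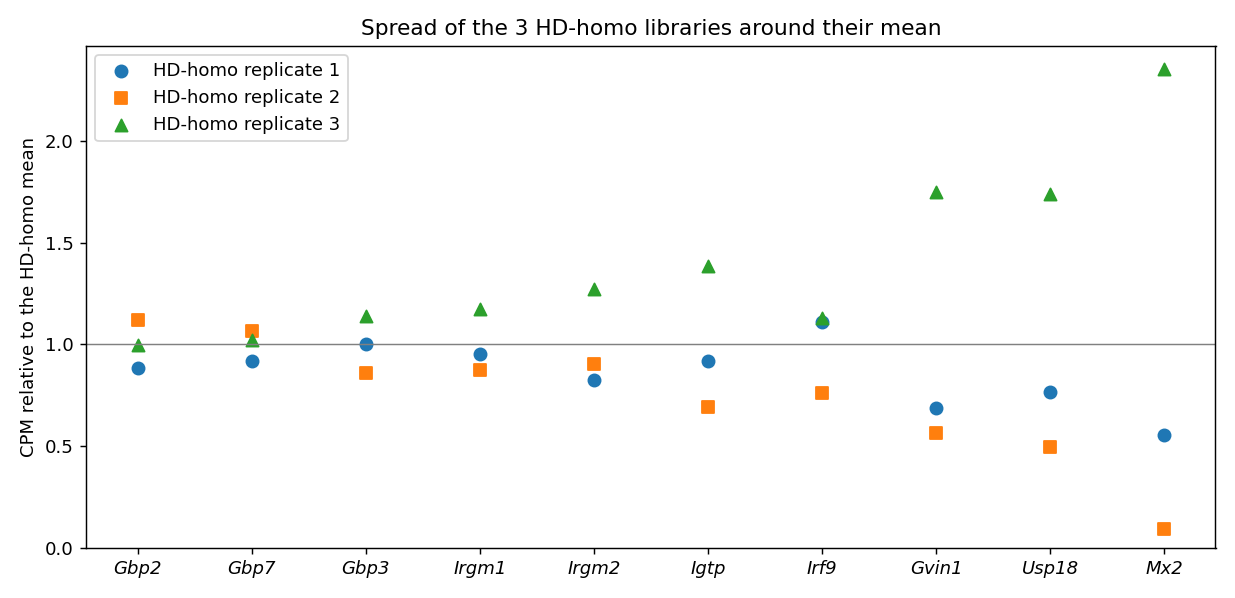
CPM of each HD-homo library divided by the HD-homo mean of the gene (y axis, linear, from 0) for the 6 tested members and 4 interferon-related genes, with 1 symbol per replicate. The libraries of Gbp2 and Gbp7 lie close to 1, replicate 3 (triangle) is highest for Igtp, Gvin1, Usp18 and Mx2, and replicate 2 (square) is lowest for Igtp, Irf9, Gvin1, Usp18 and Mx2.

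Relatives of the family outside the 10 genes moved in more than one way. Of 21 listed GBPs, IRGs and giant GTPases, 19 had a row and 9 were tested. Several of the 9 share sequence, so they are not 9 separate signals: Gvin1 and Gm4070 had identical counts, and the 4 tandem IRG genes Gm5431, 9930111J21Rik1, 9930111J21Rik2 and Gm12185 share 53.9 to 94.7% of their 28-base coding windows with other genes, mainly with one another. With each of these sets counted once (Gvin1 and 9930111J21Rik1), 5 signals were tested. Of the 5, 4 were higher and 0 lower in HD-het than in control, 3 were higher and 2 lower in HD-homo than in control, and 2 were higher and 3 lower in HD-homo than in HD-het, with median log2 fold changes of 2.47, 1.00 and -0.85. Counted gene by gene, the 9 gave 8 higher and 0 lower, 4 higher and 5 lower, and 3 higher and 6 lower, with medians of 2.31, -0.69 and -1.47, so the sign of the median in HD-homo against control depends on the tandem genes. These and the next lists are to be read against the shares of all genes given above. As with the members, Gbp2b, Gvin1, Gm4070 and Ifi47 passed the filter through lines in which they were higher. In the lists below the same holds for Usp18, Nlrc5, Aim2, Trim21 and Casp1. The counts and medians therefore describe the tested genes and are not support for a direction. Gbp2b (also known as Gbp1), which sits between Gbp3 and Gbp2, followed them with 0, 1 and 2 counts in control cells, 12, 14 and 11 in HD-het cells and 70, 63 and 39 in HD-homo cells. Its ratio of footprints to control was 13.9 in HD-het (95% counting interval 4.415 to 70.69) and 64.2 in HD-homo (21.61 to 314.4). Its HD-homo value of 5.82 on the log2 scale became 6.76 without control replicate 3.

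The effector-type IRG Ifi47, named after its values were seen, had the opposite second step to Igtp. It held 0.267, 0.238 and 0.226 CPM in control cells, 1.40, 1.29 and 1.42 CPM in HD-het cells and 0.556, 0.573 and 0.310 CPM in HD-homo cells, so that HD-het was highest in every library. Against control it rose in HD-het by 2.47 on the log2 scale (edgeR adjusted p = 1.95e-05) and HD-homo was at -1.47 against HD-het (edgeR adjusted p = 0.000289). Its call in HD-homo against control (1.00, edgeR adjusted p = 0.0228) was lost in DESeq2 and without any 1 of the control libraries or HD-homo replicate 1 or 2 (adjusted p up to 0.0798 over these edgeR and DESeq2 fits). The IRG tandem gene 9930111J21Rik1 was also highest in HD-het but lowest in HD-homo, with 1.36 CPM in control cells, 6.73 in HD-het cells and 0.483 in HD-homo cells. Irgq, an IRG-like gene, was lower in HD-homo than in control by -0.69 on the log2 scale (edgeR adjusted p = 0.00447). The giant GTPase genes Gvin1 and Gm4070 had identical counts, 1, 0 and 0 in control cells, 5, 7 and 5 in HD-het cells and 47, 28 and 75 in HD-homo cells, and share 99.6% and 99.2% of their windows, so they count as 1 signal.

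Footprints on genes of the interferon pathway, the known inducer of these genes, were counted in the same libraries. The activity of the pathway was not measured. Ifng, the gene of interferon gamma, was at 0 in all 9 libraries, and Ifnb1 never exceeded 1 count. Of 21 listed signalling genes 16 were tested, of which 4 were higher and 3 lower in HD-het than in control and 8 were higher and 2 lower in HD-homo, with median log2 fold changes of 0.28 and 0.38. Against HD-het, HD-homo had 7 higher and 3 lower. Leaving out control replicate 1, 2 or 3, or HD-homo replicate 3, left 1 of the 2 lower genes. Irf9, the DNA-binding subunit at the ISRE, rose stepwise like Gbp2 and Igtp, from 1.76 ± 0.143 CPM in control through 5.97 ± 0.952 in HD-het to 19.6 ± 4.11 in HD-homo (SD, n = 3; HD-homo log2 fold change 3.47, edgeR adjusted p = 9.31e-08).

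Stat2 and Irf1 showed other shapes. Stat2 was at 2.90 ± 0.229 CPM in control cells, 3.11 ± 0.0317 in HD-het cells and 7.49 ± 0.589 in HD-homo cells (SD, n = 3), and passed in HD-homo alone of the lines set against control (1.37, edgeR adjusted p = 6e-06). Irf1 was at 16.2 ± 1.49 CPM in control and fell to 10.5 ± 1.92 in HD-het (-0.62, edgeR adjusted p = 0.00673) and rose to 24.1 ± 4.69 in HD-homo (0.58 against control, edgeR adjusted p = 0.0114). Usp18, an interferon-induced brake on the type I receptor, had 4, 0 and 0 counts in control cells, 7, 4 and 10 in HD-het cells and 427, 202 and 610 in HD-homo cells, a log2 fold change of 8.37 in HD-homo (edgeR adjusted p = 6.36e-06) that became 11.8 without control replicate 1, where the control counts lay. The interferon gamma receptor chains went apart, Ifngr2 higher in HD-homo than in control (0.87, edgeR adjusted p = 0.000277) and Ifngr1 lower (-0.61, edgeR adjusted p = 0.0175, up to 0.0703 when replicate 1 or 2 of control or replicate 2 of HD-homo was removed).

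Partners of the family, the autophagy conjugation genes, galectins, prenylation enzymes and inflammasome genes through which GBPs and IRGs work, were mixed. Of 29 listed genes 27 were tested. In HD-het 13 were higher and 5 lower than control, in HD-homo 14 were higher and 2 lower, and the median log2 fold changes were 0.25 and 0.30. In HD-homo against HD-het 11 were higher and 5 lower. Without control replicate 2 or 3, 3 were lower in HD-het than in control, and without HD-het replicate 1, 3 were lower in HD-homo than in HD-het. Lgals3 (galectin-3, which binds damaged vacuoles and draws GBPs to them) stood at 33.9 ± 3.13 CPM in control cells and rose to 801 ± 34.00 in HD-homo (SD, n = 3; log2 fold change 4.56, edgeR adjusted p = 1.67e-10). Lgals8 (1.28, edgeR adjusted p = 9.57e-07), the autophagy receptor Optn (1.22, edgeR adjusted p = 2.06e-05) and the ubiquitin ligase Trim21 (1.68, edgeR adjusted p = 0.00193) were also higher in HD-homo. Optn (1.16, edgeR adjusted p = 2.45e-05) and Trim21 (2.09, edgeR adjusted p = 0.000242) were higher in HD-het too, and neither was called between the HD lines. Map1lc3a, an LC3 gene, was higher by 0.89 (edgeR adjusted p = 1.2e-05). The DNA sensor Aim2 had 0, 1 and 0 counts in control and 36, 53 and 19 in HD-homo (edgeR adjusted p = 1.97e-05). Lgals3, Map1lc3a and Aim2 were also called higher in HD-het than in control (0.82, 0.46 and 4.74 on the log2 scale). All of these were called higher again in HD-homo than in HD-het. Lgals8 was not called in HD-het against control.

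Large GTPases built on the same dynamin fold but with other tasks moved in both directions. Of 16 listed, 14 were tested, with 5 higher and 4 lower in HD-het and 2 higher and 3 lower in HD-homo against control, and medians of -0.01 and 0.00 on the log2 scale, and 4 higher and 5 lower in HD-homo against HD-het. Leaving out control replicate 3 left 1 of the 3 lower genes, and leaving out HD-homo replicate 3 left 1 of the 2 higher ones. Dnm1, neuronal dynamin, was the higher one with the largest change (1.07, edgeR adjusted p = 1.65e-05). The interferon-induced members of that fold, Mx1 and Mx2, did not pass the filter. In HD-homo replicates 1 to 3 Mx1 had 10, 1 and 19 counts and Mx2 had 33, 4 and 88, uneven libraries with replicate 2 lowest for both (0.153 CPM for Mx2).

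Among 11561 genes compared, those whose profile over the 9 libraries was most like the mean scaled profile of the 6 tested members were Samd9l (Pearson r = 0.9895), Cgas (0.9869), Clip4 (0.986), Tmem106b (0.9847) and Tanc2 (0.9843). Such values describe a rise over 3 lines, which many genes share, and each line is 1 cell line. Samd9l, an interferon-induced gene, went from 0.514 CPM in control cells through 3.96 in HD-het to 21.5 in HD-homo, and Cgas, the cytosolic DNA sensor, from 0.0159 through 1.98 to 43.5 CPM. The members' own values were 0.9916 for Igtp, 0.9595 for Gbp2, 0.9523 for Gbp7, 0.9285 for Irgm2 and 0.897 for Gbp3. Each member is part of the mean profile, which raises its value, so these are not comparable with those of the other genes. Irgm1 stood apart with -0.1299.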

How the data were processed

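Ribosome-protected fragments of 26 to 32 nt from the 80S monosome fraction were sequenced by the authors from 9 libraries. Per the submitters' processing notes, reads were trimmed with cutadapt and aligned with Bowtie 1.0.1 to mm10. The deposited table holds raw counts per gene symbol, and the counting program, annotation and use of strand are not given in the sources used here. The table's columns were matched to libraries by their names, with no column left unused.

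Counts were tested with edgeR 4.0.16 (R 4.3.3, limma 3.58.1): TMM factors, a filter on low counts by group (filterByExpr, which kept 12678 of 36410 rows), 1 quasi-likelihood fit over the 9 libraries, and Benjamini-Hochberg adjustment over all genes kept, with a threshold of 0.05. CPM used TMM-scaled totals. The script was tested on simulated data. Alternatives were DESeq2 1.42.0, other scalings, filters, thresholds and leaving out each library. In the table, 26 rows carry a date in place of a symbol and 283 an older symbol. The overlapping annotations Gm40158 (at Gbp3) and Mir6381 (at Gbp2) had 0 counts.

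The 10 members were named throughout. From each other list up to 6 genes were named that passed the threshold in HD-homo against control with at least 1 CPM in the higher line, by size of change, and Stat2, Irf1 and Irf9 in any case; 1 further signalling gene is not reported here. Nlrc5 and Casp1 were named only for how they passed the filter. The 5 most alike genes were ranked by Pearson r. Members and lists were chosen with earlier results of these data known. Coding lengths and shared 28-base windows came from GENCODE M21 and promoters from RefSeq. The window measure, the counting of relatives that share sequence as 1 and the refits of Iigp1 without each HD-homo library were chosen after seeing the data. A counting interval is the exact 95% binomial interval of pooled counts. It covers counting error only.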

Additional observations from a re-analysis of the deposited data

How the results depend on the processing

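Called directions of the 6 tested members did not reverse under any alternative in which they were tested (RLE or total-count scaling, DESeq2, no filter, only the 6 libraries compared, adjusted p under 0.01, without older symbols, leaving out each library). With only the 6 libraries compared, Gbp7 dropped out of HD-het against control, which left 5 members tested and 4 higher. At an adjusted p under 0.01, 4 were higher there too, without Gbp3 (edgeR adjusted p = 0.0198). Requiring at least 10 counts in every library left 1 member, Irgm1, to test, so that the count of members higher became 1 in HD-het against control, 0 in HD-homo against control and 0 in HD-homo against HD-het, and the count differing among the lines became 1. Requiring at least a 2-fold change took the count of members lower in HD-homo than in HD-het to 0, since Irgm1 changed by less. Of the calls of single members, that of Gbp3 in HD-het against control was lost without control replicate 3, HD-het replicate 1 or HD-het replicate 3, and its log2 fold change ran from 0.84 to 1.30 as each library was left out. Gbp2 and Gbp7, with 11 and 2 counts over the control libraries, have fold changes that the depth fixes poorly. The 95% counting interval of HD-homo to control was 24.73 to 90.2 for Gbp2 and 40.21 to 1218 for Gbp7. For Igtp, with 20 counts in control, it was still 6.408 to 17.08.

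For same-numbered libraries of the lines, the correlations of their deviations from the line means ran from -0.329 to 0.189. Libraries with different numbers were not compared, so these values do not settle whether same-numbered libraries shared a preparation. With the replicate number as a block, the members higher numbered 5 in each of the 3 comparisons and 1 was lower in HD-homo than in HD-het, so the block changed no count.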
